A study of Mus musculus with 16 samples.

Results

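The comparison described here set ES cells against MEFs, both infected with a control adenovirus, and asked in which transcripts an embryonic stem cell and an embryonic fibroblast of the same strain differ. It used 5 of the 16 samples of the series, 2 of ES cells and 3 of MEFs, and 23996 genes that could be matched between the authors' table for each cell type. ES cells, taken from the inner cell mass, and MEFs, primary adherent cells from embryos at embryonic day 13.5, were from C57BL/6 mice and carry the genotype WT in the sample labels. Per the study's methods, both cell types came from conditional mice with exon 1 of Ssu72 flanked by loxP sites, and both were infected in low serum, in the presence of a peptide that aids viral entry, with Ad-Luc, an adenovirus that encodes luciferase and leaves the gene intact. No uninfected cells are part of the comparison. A second reading below uses the Ad-Cre groups, infected with an adenovirus that encodes Cre recombinase. These are 2 samples of ES cells and 3 of MEFs, labelled KO. A few genes are also given in control hepatocytes, 3 Ad-Luc samples labelled WT, with an age of 6 weeks per the sample labels. The study's methods speak of independent experiments without tying them to single samples, and the sources used here do not say whether ES cells were grown on feeder cells. The ES table names its Ad-Luc samples with the letters FS and its Ad-Cre samples with ES, and both were read as ES cells.

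ES cells are the cultured form of the pluripotent inner cell mass. A small set of transcription factors around Oct4, Sox2 and Nanog holds them in a state from which every tissue of the embryo can arise, and they divide quickly with a short G1 phase. MEFs are connective tissue cells that secrete and remodel extracellular matrix, pull on it through stress fibres, and carry the positional record of the body part they came from in their Hox genes. They also act as sentinel cells, with interferon and chemokine responses that ES cells are known to mount only weakly.

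Each gene had a single FPKM per group, a fragment count that the authors scaled for transcript length and library size, so that no SD, n or test stands beside any value and depth is unknown. No difference below has a replicate check. The difference between the groups was taken as log2((ES + 1)/(MEF + 1)), called the log2 ratio below, which is positive where ES cells were higher and which understates the difference of weakly expressed genes. A gene is called higher in one cell type where this ratio passed 2-fold and at least 1 FPKM was reached in either group, and a list member that reached this level in either group is called measured. The table of ES cells and that of MEFs were normalized separately by the authors, so a general shift of all genes between them cannot be told apart from scaling. Per the study's methods, an ERCC spike-in RNA mix was added to all samples, but no spike-in values were used here.

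The labelled cell types held up against their markers. Pou5f1, which encodes Oct4 and lies on chr17:35506032-35510777 of mm10, had 1249.6 FPKM in ES cells and was listed at 0 in MEFs. Col1a1, the alpha 1 chain of type I collagen on chr11:94936270-94951856, had 1.06 FPKM in ES cells and 7076 FPKM in MEFs, where it was second only to the short RNA Mir130c among all genes. In the Ad-Cre column of the same ES table, Pou5f1 had 1357 FPKM and Nanog 269 FPKM, close to the 1249.6 and 261 FPKM of the group named with the letters FS. The list of 20 fibroblast markers summed to 108 FPKM in ES cells and to 21131 FPKM in MEFs, and in ES cells 101 of these FPKM were Fn1, which encodes fibronectin. Collagen and matrix markers of the list were near 0 there, for example with 0.0900 FPKM of Col3a1 and 0.0497 FPKM of Postn in ES cells, against 1468 and 902 FPKM in MEFs.

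**Figure D1:**
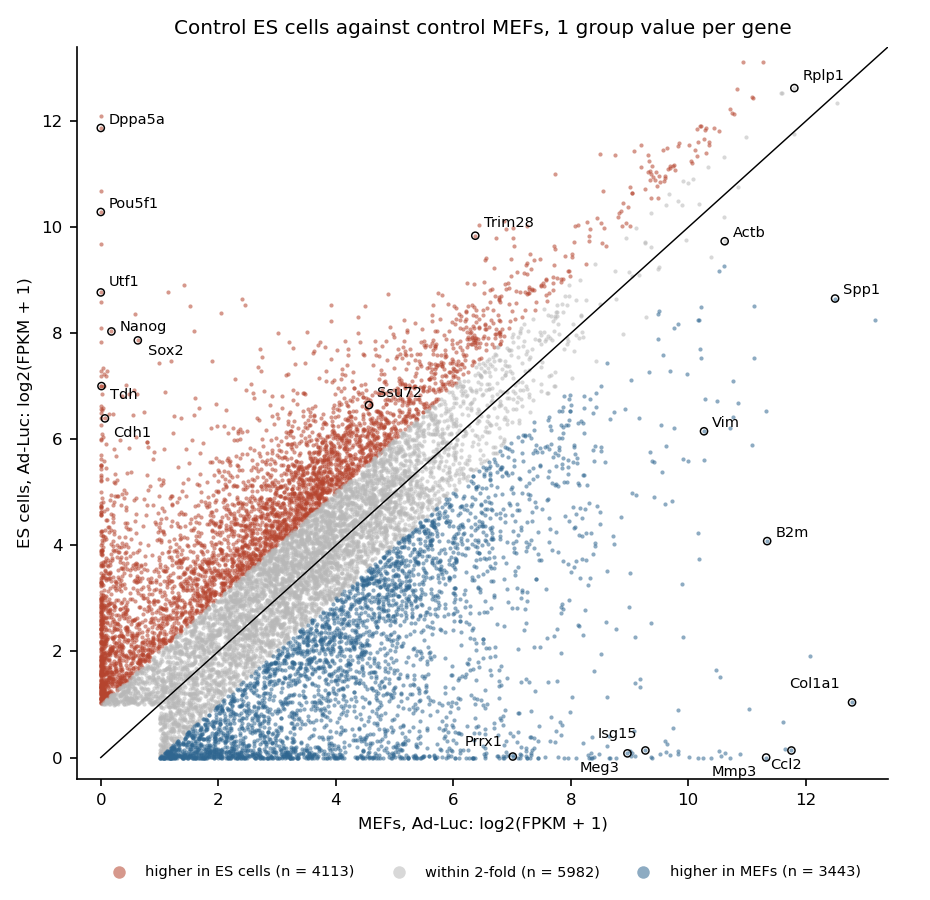
Each point is 1 of 13538 genes with at least 1 FPKM in either group, with log2(FPKM + 1) of control ES cells on the y axis and of control MEFs on the x axis, and the diagonal marks equal values. Red points lie at least 2-fold higher in ES cells and blue points at least 2-fold higher in MEFs, and named genes are circled. Pou5f1 and Dppa5a sit on the left edge and Mmp3 on the bottom edge because the other group is listed at 0.

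Of 13538 genes with at least 1 FPKM in either group, 4113 (30.4%) were higher in ES cells and 3443 (25.4%) higher in MEFs, while 5982 lay within 2-fold. These shares are the background against which each gene list below is to be read. At or above 1 FPKM there were 11839 genes in ES cells and 12030 in MEFs, of which 1508 reached this level in ES cells only, 1699 in MEFs only and 10331 in both. Genes higher in ES cells made up 54.4% of all genes past 2-fold, but this share depended on scaling. It was 46.5% with both groups set to the same FPKM total, 43.4% with the median gene of both groups set to 0, and 10.9% with the median ribosomal protein gene set to 0. As deposited, the median log2 ratio over all genes at this level was 0.24, and every list median below contains this shift.

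As deposited, differences towards MEFs were fewer but larger. That they were fewer depended on scaling, since 3371 genes were higher in ES cells and 3872 in MEFs with both groups set to the same FPKM total. The counts and sizes that follow are as deposited. At 4-fold 1422 genes were higher in ES cells and 1793 in MEFs, at 16-fold 190 genes were higher in ES cells and 518 in MEFs, and at 64-fold 49 in ES cells and 153 in MEFs. The median size of the log2 ratio was 1.69 among genes higher in ES cells and 2.06 among genes higher in MEFs. Just inside the 2-fold limit, Dazap1 had 82.7 FPKM in ES cells and 40.9 FPKM in MEFs, and just outside it Cul1 had 61.8 FPKM in ES cells and 30.4 FPKM in MEFs. On the side of MEFs, Tesk1 had 5.05 FPKM in ES cells and 11.1 FPKM in MEFs, just inside, and Manf had 32.1 FPKM in ES cells and 65.2 FPKM in MEFs, just outside. Of the genes past 2-fold, 170 of those higher in ES cells were listed at 0 in MEFs and 197 of those higher in MEFs were listed at 0 in ES cells, and no fold is given for these because such a 0 can also be a failed estimate. List medians take a listed 0 as it stands.

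The most abundant transcripts differed in kind. Besides short RNAs, the highest values in ES cells were those of the growth-linked gene Tpt1, the ribosomal protein genes Rplp1 and Rps12, the elongation factor gene Eef1a1 and Ftl1, which encodes an iron storage chain. Rplp1, a stalk protein of the ribosome, had 6318 FPKM in ES cells and 3582 FPKM in MEFs. In MEFs secreted proteins stood beside them, with Col1a1, Spp1, Saa3, Ccl2, Col1a2 and Bgn among the 10 highest. The 100 highest genes held 40.4% of the FPKM total in ES cells and 32.1% in MEFs.

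Promoters of 10 genes are printed here so that their letters can be read beside the values of the groups they belong to. The sequences are the 120 bases before the start of the gene in RefSeq (GRCm38.p6), written in the direction of the gene, and a motif may lie on either strand. Capitals mark the octamer core (ATGCAAA) in Nanog and Sox2, the GC box (GGGCGG) in Sox2 and Pou5f1, the E2F site (TTTCCCGC or TTTGGCGC) in Mcm6, and the CHR element (TTTGAA) and CCAAT box (CCAAT) in Cdc20. In genes higher in MEFs they mark the AP-1 site (TGANTCA) and the TATA box (TATAAA) in Mmp3 and Mmp13, the CCAAT box in Col1a2, the NF-kB site in Cxcl1 and the ISRE (GAAANNGAAA) in Isg15. Only the motifs named for a gene are in capitals, and its matches to any other of these motifs are left in lower case. For example, Sox2, Pou5f1 and Mcm6 hold CCAAT box letters on the other strand, and Mcm6 holds GC box letters, all in lower case. The capitals therefore do not show which genes lack a motif.
Nanog: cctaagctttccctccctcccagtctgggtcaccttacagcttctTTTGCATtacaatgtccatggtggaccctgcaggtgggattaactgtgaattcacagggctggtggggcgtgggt
Sox2: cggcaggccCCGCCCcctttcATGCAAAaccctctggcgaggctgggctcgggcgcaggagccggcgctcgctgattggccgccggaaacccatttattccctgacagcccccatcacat
Pou5f1: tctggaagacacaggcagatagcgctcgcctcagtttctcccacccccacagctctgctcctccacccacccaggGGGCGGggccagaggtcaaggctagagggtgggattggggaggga
Mcm6: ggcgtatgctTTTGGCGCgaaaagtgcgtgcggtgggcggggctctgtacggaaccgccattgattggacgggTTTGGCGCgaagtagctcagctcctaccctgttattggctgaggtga
Cdc20: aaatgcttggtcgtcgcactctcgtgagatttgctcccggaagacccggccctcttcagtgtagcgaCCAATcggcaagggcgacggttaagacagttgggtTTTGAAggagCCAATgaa
Mmp3: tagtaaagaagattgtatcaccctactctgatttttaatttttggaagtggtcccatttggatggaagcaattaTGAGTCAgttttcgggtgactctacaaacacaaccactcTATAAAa
Mmp13: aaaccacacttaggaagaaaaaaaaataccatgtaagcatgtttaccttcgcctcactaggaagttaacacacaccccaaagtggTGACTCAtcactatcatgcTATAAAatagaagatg
Col1a2: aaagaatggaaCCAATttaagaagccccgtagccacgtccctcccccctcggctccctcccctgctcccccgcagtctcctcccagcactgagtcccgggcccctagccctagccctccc
Cxcl1: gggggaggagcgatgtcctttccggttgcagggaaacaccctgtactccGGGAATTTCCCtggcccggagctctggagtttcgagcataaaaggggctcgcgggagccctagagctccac
Isg15: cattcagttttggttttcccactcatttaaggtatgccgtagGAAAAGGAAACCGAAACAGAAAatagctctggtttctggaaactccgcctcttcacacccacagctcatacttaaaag
Their positions are chr6:122707369-122707488 (Nanog), chr3:34649875-34649994 (Sox2) and chr17:35505912-35506031 (Pou5f1), chr1:128359706-128359825 (Mcm6, minus strand) and chr4:118437344-118437463 (Cdc20, minus strand), chr9:7445702-7445821 (Mmp3), chr9:7272394-7272513 (Mmp13), chr6:4505498-4505617 (Col1a2), chr5:90891125-90891244 (Cxcl1) and chr4:156200819-156200938 (Isg15, minus strand), with the plus strand for all others.

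Nanog and Sox2 each held 1 octamer core within these 120 bases, the DNA element that Oct4 binds, and the capitals in Pou5f1 mark 1 GC box. Mcm6 held the E2F site at 2 places, and Cdc20 a pair of CCAAT boxes with a CHR element between them. Mmp3 and Mmp13, both of a protease cluster on chromosome 9, held an AP-1 site and a TATA box each. The TATA box letters lay close to the start of the gene, at positions -7 to -2 in Mmp3 and -16 to -11 in Mmp13. Cxcl1 held 2 overlapping NF-kB matches, one on each strand, and Isg15 a run of 3 overlapping ISRE matches. A match is a description of these letters and not a site of binding.

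Both strands were searched over 250 bases before the start, apart from the TATA box, which was searched on the strand of the gene over 50 bases, and matches of different motifs overlapped in few promoters, most often the CCAAT box and the GC box, in 62. Of all 32851 promoters of the table, 4.12% held the octamer core, 32.7% the GC box, 1.30% an E2F site, 33.8% a CCAAT box, 16.0% the CHR element, 6.75% an AP-1 site, 2.63% a TATA box, 3.90% an NF-kB site and 2.98% an ISRE. Only 74.1% of genes at 1 FPKM have a promoter in the table, so that a comparison of motif shares between all genes higher in ES cells and all genes higher in MEFs is void and is not given. The 2 cell cycle lists had a promoter for 33 of 40 G2/M and mitosis genes and for 36 of 45 DNA replication and G1/S genes. Their shares are a description only, since these lists were chosen with earlier results of these data known. The shares of all promoters of the table are not limited to expressed genes, so a closer background is given for these lists. It covers only the same 74.1% of genes. Of the 10036 promoters of genes at 1 FPKM in either group, 36.65% held a CCAAT box, 10.19% a CHR element and 2.56% an E2F site. Of 33 promoters of G2/M and mitosis genes, 26 held a CCAAT box (78.8%), 10 a CHR element (30.3%) and none an E2F site. Of 36 promoters of DNA replication and G1/S genes, 7 held an E2F site (19.4%), 21 a CCAAT box (58.3%) and 4 a CHR element (11.1%). A high CCAAT share was not particular to these lists. This box was present in 15 of 19 promoters of sterol and fatty acid genes (78.9%). It was also present in 8 of 11 promoters of MHC class I genes (72.7%).

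Transcription factors of pluripotency were higher in ES cells in 28 of 29 measured members, with none higher in MEFs and a median log2 ratio of 4.43. With ribosomal protein genes set to 0, 24 of the 29 were. Utf1, a chromatin-bound factor of undifferentiated cells, had 436 FPKM in ES cells and was listed at 0 in MEFs. Nanog, the homeobox factor that sustains self-renewal, had 261 FPKM in ES cells and 0.134 FPKM in MEFs, a log2 ratio of 7.85. Pou5f1 itself stood highest of the list in ES cells.

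Sox2, the partner of Oct4 on DNA, had 233 FPKM in ES cells and 0.548 FPKM in MEFs. Esrrb and Nr0b1, nuclear receptors of the naive state, had 149 and 115 FPKM in ES cells, against 0.0344 and 0.0141 FPKM in MEFs. Zfp42, known as Rex1, had 47.6 FPKM in ES cells and 0.0357 FPKM in MEFs. Klf4, one of the reprogramming factors, had the smallest ratio of the 28, and it had 120.4 FPKM in ES cells and 49.4 FPKM in MEFs. Zfp281, the single measured member within 2-fold, had 32.9 FPKM in ES cells and 17.9 FPKM in MEFs.

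Other genes known for pluripotency were higher in ES cells in 25 of 29 members and higher in MEFs in 1, with a median of 4.69. Dppa5a, an RNA-binding protein of the early embryo, had 3749 FPKM in ES cells and was listed at 0 in MEFs. Tdgf1, the Nodal co-receptor Cripto, had 385 FPKM in ES cells and 0.00589 FPKM in MEFs. L1td1, an RNA-binding protein derived from a LINE-1 element, had 155 FPKM in ES cells and 0.00382 FPKM in MEFs. The RNA-binding protein Lin28a, which blocks maturation of let-7, had 51.3 FPKM in ES cells and 0.00782 FPKM in MEFs. Spp1, which encodes the secreted phosphoprotein osteopontin, was the exception, and it had 402 FPKM in ES cells and 5792 FPKM in MEFs.

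Signalling genes that keep or prime ES cells went both ways, with 11 of 26 members higher in ES cells and 7 higher in MEFs, and their median of 0.51 became -0.91 once ribosomal protein genes were set to 0. Tdgf1 had the largest ratio of these members too. Fgf4, which pushes ES cells towards lineage commitment, had 84.1 FPKM in ES cells and was listed at 0 in MEFs. Nodal, a TGF-beta family ligand, had 62.9 FPKM in ES cells and was listed at 0 in MEFs. Lefty2, an inhibitor of Nodal, had 8.52 FPKM in ES cells and was listed at 0 in MEFs. Of members higher in MEFs, the receptor gene Fgfr1 had 21.9 FPKM in ES cells and 197 FPKM in MEFs, and Il6st, the gp130 chain through which LIF signals, had 9.10 FPKM in ES cells and 99.2 FPKM in MEFs.

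Markers of primed and germ layer cells were mostly weak. In ES cells 13 of 19 measured members were higher and in MEFs 4, with a median of 1.44, and with ribosomal protein genes set to 0 these were 5 in ES cells and 6 in MEFs, with a median of 0.01. A further 9 of the 28 matched members stayed under 1 FPKM in both groups. Cdx1, a caudal homeobox factor, had 24.3 FPKM in ES cells and 0.0337 FPKM in MEFs, and Tfap2c, a factor of trophoblast and germ cells, had 21.4 FPKM in ES cells and 0.0767 FPKM in MEFs. The brain factor Otx2 had 1.40 FPKM in ES cells and was listed at 0 in MEFs. Zic1 and Pax3, factors of neural crest and somites, had 0.202 and 0.123 FPKM in ES cells and 3.63 and 2.45 FPKM in MEFs.

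Germline genes were higher in ES cells in 18 of 19 measured members, with a median of 2.58, and in 12 with ribosomal protein genes set to 0. Stra8, which licenses meiosis in germ cells, had 162 FPKM in ES cells and 0.0305 FPKM in MEFs, and the next highest of the list, the ribosomal protein variant Rpl10l, had 24.9 FPKM in ES cells and was listed at 0 in MEFs. Mael, a piRNA pathway protein, had 13.3 FPKM in ES cells and 0.00929 FPKM in MEFs, and the helicase gene Ddx4 had 12.3 FPKM in ES cells and 0.142 FPKM in MEFs. Genes of the 2-cell-like state stayed under 1 FPKM. Zscan4d, the highest of the Zscan4 genes in the list, had 0.0958 FPKM in ES cells and was listed at 0 in MEFs.

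Enzymes that write, keep and remove DNA methylation were higher in ES cells in 11 of 16 members, and higher in MEFs in 2, with a median of 2.32. These counts were 8 and 5 with ribosomal protein genes set to 0. Dnmt3l, the cofactor of de novo methylation, had 116 FPKM in ES cells and 0.391 FPKM in MEFs. The dioxygenase gene Tet1 had 39.5 FPKM in ES cells and 0.182 FPKM in MEFs, and the de novo enzyme gene Dnmt3b had 41.0 FPKM in ES cells and 0.421 FPKM in MEFs. Trim28, the corepressor that silences retroviral elements, had 916 FPKM in ES cells and 82.0 FPKM in MEFs. Tet3 and Apobec1, the members higher in MEFs, had 1.59 and 4.48 FPKM in ES cells, against 4.71 and 12.5 FPKM in MEFs.

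Polycomb subunits were divided between the cell types. Of 31 members, 17 were higher in ES cells and 5 in MEFs, and the median of 1.24 became -0.19 with ribosomal protein genes set to 0. Among CBX proteins, the chromodomain readers of PRC1, Cbx7 had 53.4 FPKM in ES cells and 0.874 FPKM in MEFs, and Cbx6, within 2-fold, had 10.4 FPKM in ES cells and 18.8 FPKM in MEFs. Among PHC proteins, Phc1 had 156 FPKM in ES cells and 5.62 FPKM in MEFs while Phc2 had 16.6 FPKM in ES cells and 62.6 FPKM in MEFs. Jarid2, an accessory subunit of PRC2, had 95.9 FPKM in ES cells and 2.18 FPKM in MEFs, and the methyltransferase gene Ezh2 had 83.2 FPKM in ES cells and 7.14 FPKM in MEFs.

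Chromatin remodellers and lamins were divided as well, with 15 of 29 members higher in ES cells, 4 higher in MEFs and a median of 1.01 that became -0.41 with ribosomal protein genes set to 0. The B-type lamin gene Lmnb1 had 227 FPKM in ES cells and 8.19 FPKM in MEFs, whereas Lmna, which encodes the A-type lamins of stiffer tissues, had 48.2 FPKM in ES cells and 247 FPKM in MEFs. Of the pair of ATPases of the BAF complex, Smarca4 had 72.0 FPKM in ES cells and 29.7 FPKM in MEFs and Smarca2 had 1.19 FPKM in ES cells and 13.5 FPKM in MEFs. Hmgb2 had 227 FPKM in ES cells and 12.2 FPKM in MEFs, and Hmga2, an architectural protein that let-7 represses, had 4.81 FPKM in ES cells and 149 FPKM in MEFs.

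Telomere factors were higher in ES cells in 10 of 12 measured members, none was higher in MEFs, and the median was 1.76. Setting ribosomal protein genes to 0 left 3 higher in ES cells and 1 in MEFs, with a median of 0.33. Dkc1, a core protein of telomerase and of pseudouridylation particles, had 87.9 FPKM in ES cells and 7.02 FPKM in MEFs. Tert, the catalytic subunit, had 6.79 FPKM in ES cells and 2.02 FPKM in MEFs. The RNA component Terc stayed under 1 FPKM in both groups.

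Genes of cell division were higher in ES cells. All 40 G2/M and mitosis genes were higher in ES cells, with log2 ratios between 1.19 and 4.04 and a median of 2.99, and 29 of them still were with ribosomal protein genes set to 0. Cdc20, the activator of the anaphase-promoting complex, had 203 FPKM in ES cells and 11.4 FPKM in MEFs, a log2 ratio of 4.04. Bub1b, a spindle checkpoint kinase, had 69.8 FPKM in ES cells and 4.32 FPKM in MEFs, and cyclin B1 (Ccnb1) had 142 FPKM in ES cells and 12.1 FPKM in MEFs. Both groups expressed every one of these genes at 1 FPKM or more.

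Among DNA replication and G1/S genes, 43 of 45 were higher in ES cells and none in MEFs, with a median of 2.82, against 32 and none with ribosomal protein genes set to 0. The replicative helicase subunits Mcm2, Mcm5 and Mcm6 had 229.9, 149 and 227 FPKM in ES cells, against 16.8, 8.13 and 20.2 FPKM in MEFs. Gmnn, the licensing inhibitor geminin, had 109 FPKM in ES cells and 5.08 FPKM in MEFs. The members within 2-fold were E2f1, which had 24.0 FPKM in ES cells and 14.6 FPKM in MEFs, and Ccne2, which had 3.25 FPKM in ES cells and 1.70 FPKM in MEFs.

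Regulators of G1 and targets of p53 were mixed, with 5 of 30 members higher in ES cells, 9 in MEFs, 16 within 2-fold and a median of -0.09. With ribosomal protein genes set to 0, none was higher in ES cells and 19 were in MEFs. Of the inhibitors of cyclin-dependent kinases, Cdkn1a, which encodes p21, had 24.9 FPKM in ES cells and 181 FPKM in MEFs. Cdkn2b had 2.61 FPKM in ES cells and 48.2 FPKM in MEFs, and Cdkn2a had 18.8 FPKM in ES cells and 67.7 FPKM in MEFs. The inhibitor genes Cdkn1b, Cdkn1c and Cdkn2d lay within 2-fold. Of the D cyclins, Ccnd2 had 2.79 FPKM in ES cells and 104 FPKM in MEFs, Ccnd3 had 307 FPKM in ES cells and 73.0 FPKM in MEFs and Ccnd1 had 43.8 FPKM in ES cells and 44.9 FPKM in MEFs. Trp53, the gene of p53, had 328 FPKM in ES cells and 67.7 FPKM in MEFs.

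**Figure D2:**
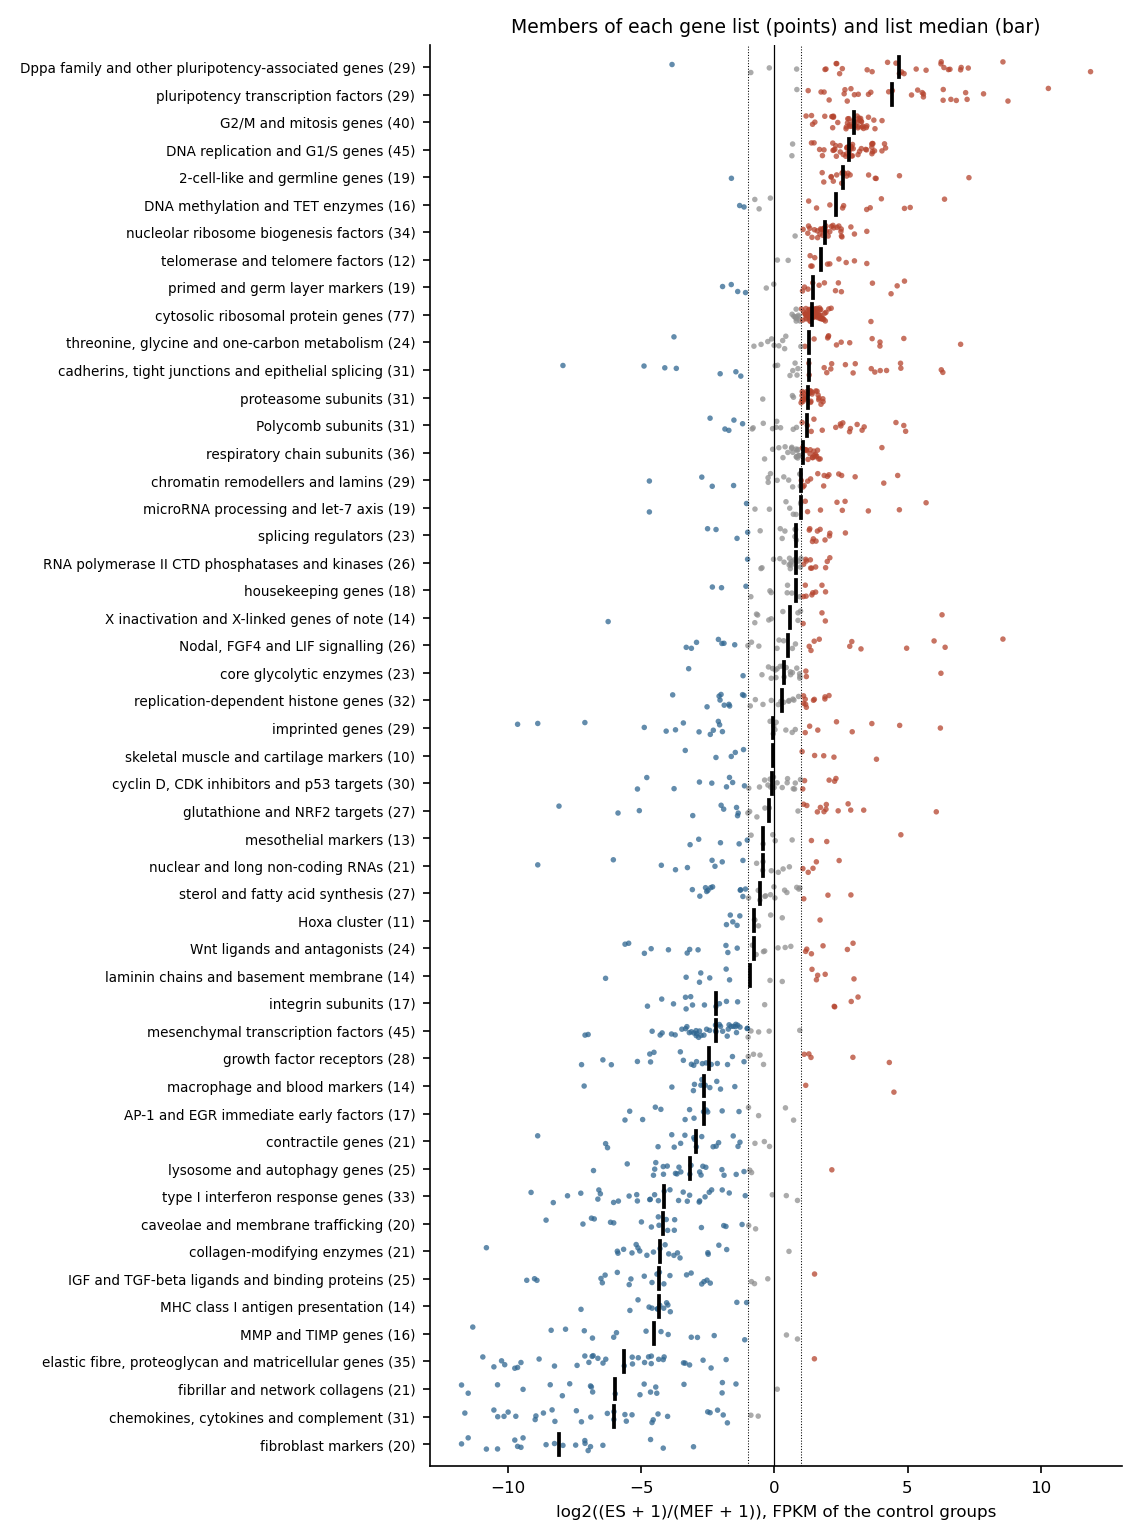
Each row is a gene list with the number of its members at 1 FPKM or more in parentheses, each point a member placed by log2((ES + 1)/(MEF + 1)) and each bar the list median, with dotted lines at 2-fold. Lists run from the Dppa family with a median of 4.69 at the top to fibroblast markers with -8.10 at the bottom. Medians between 0 and about the ribosomal protein median of 1.42, such as that of Polycomb subunits or the proteasome, turn negative when ribosomal protein genes are set to 0.

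Genes of protein synthesis were shifted together towards ES cells. Of 77 cytosolic ribosomal protein genes, 67 were higher in ES cells and none in MEFs, with a median of 1.42. Rps25, with the largest ratio of those above 0 in both groups, had 1648 FPKM in ES cells and 375 FPKM in MEFs, and Rpl31, with the smallest, had 339 FPKM in ES cells and 214 FPKM in MEFs. Tpt1, a growth-linked protein whose mRNA is regulated like those of ribosomal proteins, had 8866 FPKM in ES cells and 1963 FPKM in MEFs. Of 34 nucleolar factors of ribosome assembly, 33 were higher in ES cells, with a median of 1.89, against 7 of them and a median of 0.46 with ribosomal protein genes set to 0. Npm1, nucleophosmin, had 2660.3 FPKM in ES cells and 362 FPKM in MEFs, and fibrillarin (Fbl) had 366 FPKM in ES cells and 63.3 FPKM in MEFs.

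Proteasome subunits were higher in ES cells in 28 of 31 members, with a median of 1.26. Only 15 were once the median gene was set to 0, and none with ribosomal protein genes set to 0, where the median became -0.16. The ATPase gene Psmc5 had 206 FPKM in ES cells and 57.3 FPKM in MEFs. The interferon-inducible subunits that replace the standard ones went the other way, and Psmb8 had 0.613 FPKM in ES cells and 55.2 FPKM in MEFs. Respiratory chain subunits were higher in ES cells in 19 of 36 members and in MEFs in none, with a median of 1.08, against 1 in ES cells, 5 in MEFs and a median of -0.35 under the same scaling. Atp5b, the catalytic chain of ATP synthase, had 1079 FPKM in ES cells and 366 FPKM in MEFs, and Cox7a1 had 52.3 FPKM in ES cells and 2.24 FPKM in MEFs.

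Threonine and one-carbon metabolism, on which mouse ES cells are known to depend, had 13 of 24 members higher in ES cells and 1 higher in MEFs, with a median of 1.32 that became -0.11 with ribosomal protein genes set to 0. Tdh, the threonine dehydrogenase that starts the pathway, had 127 FPKM in ES cells and 0.00822 FPKM in MEFs. Amt and Gldc, parts of the glycine cleavage system, had 86.6 and 15.4 FPKM in ES cells, against 2.01 and 0.289 FPKM in MEFs. The glycine transporter gene Slc6a9 was the member higher in MEFs, and it had 1.93 FPKM in ES cells and 39.0 FPKM in MEFs.

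Glycolysis differed in single isozymes. Of 23 genes, 18 lay within 2-fold, 3 were higher in ES cells and 2 in MEFs, with a median of 0.37 that became -1.06 with ribosomal protein genes set to 0. The glucose transporter gene Slc2a3 had 402 FPKM in ES cells and 4.28 FPKM in MEFs, whereas Slc2a1 had 235 FPKM in ES cells and 189 FPKM in MEFs. Of the hexokinases, Hk2 had 43.0 FPKM in ES cells and 28.0 FPKM in MEFs and Hk1 had 13.5 FPKM in ES cells and 31.7 FPKM in MEFs.

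Epithelial and mesenchymal adhesion genes were divided, with 17 of 31 members higher in ES cells and 7 in MEFs, and a median of 1.31 that became -0.12 with ribosomal protein genes set to 0. Cdh1, E-cadherin, had 83.2 FPKM in ES cells and 0.0501 FPKM in MEFs. Cdh2, N-cadherin, had 1.03 FPKM in ES cells and 59.4 FPKM in MEFs, and Cdh11, the cadherin of mesenchyme, had 0.204 FPKM in ES cells and 295 FPKM in MEFs. Epcam had 88.3 FPKM in ES cells and 0.160 FPKM in MEFs, and the tight junction gene Cldn6 had 25.7 FPKM in ES cells and was listed at 0 in MEFs. Esrp1, a splicing factor of epithelial cells, had 5.35 FPKM in ES cells and was listed at 0 in MEFs. Vim, the mesenchymal intermediate filament vimentin, had 70.2 FPKM in ES cells and 1233 FPKM in MEFs.

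Many of the largest differences towards MEFs were in genes of the extracellular matrix. Of 21 measured collagen genes, 20 were higher in MEFs and none in ES cells, with a median log2 ratio of -5.97. Col1a1 had a log2 ratio of -11.75, the largest of all genes in this direction. Col1a2, whose chain joins that of Col1a1 in type I collagen, had 0.113 FPKM in ES cells and 3222 FPKM in MEFs, and Col3a1 had 0.0900 FPKM in ES cells and 1468 FPKM in MEFs. The exception was Col18a1, the source of endostatin, which had 115 FPKM in ES cells and 107 FPKM in MEFs.

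Enzymes that process collagen followed, with 20 of 21 higher in MEFs and a median of -4.30. Lox, which cross-links collagen and elastin, had 0.0432 FPKM in ES cells and 1879 FPKM in MEFs. Serpinh1, the collagen chaperone Hsp47, had 58.2 FPKM in ES cells and 2162 FPKM in MEFs. Pcolce2, an enhancer of procollagen cleavage, was the member within 2-fold and had 9.76 FPKM in ES cells and 6.36 FPKM in MEFs.

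Elastic fibre, proteoglycan and matricellular genes were higher in MEFs in 34 of 35 members, with a median of -5.64. The proteoglycan genes Bgn and Dcn had 0.591 and 0.0270 FPKM in ES cells, against 3145 and 821 FPKM in MEFs. Tnc, the matrix glycoprotein tenascin C, had 0.0193 FPKM in ES cells and 1510.1 FPKM in MEFs. Thbs1, thrombospondin 1, had 0.878 FPKM in ES cells and 2099 FPKM in MEFs, and Mgp, an inhibitor of calcification, was listed at 0 in ES cells and had 1213 FPKM in MEFs. Omd, osteomodulin, was the only member higher in ES cells, and it had 9.65 FPKM in ES cells and 2.76 FPKM in MEFs.

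The basement membrane was divided between the groups. Of 14 laminin and related genes, 5 were higher in ES cells, 7 in MEFs, and the median was -0.92, against 1 and 9 with ribosomal protein genes set to 0. Lama1 and Lama5, alpha chains of the early embryo and of epithelia, had 19.3 and 42.8 FPKM in ES cells, against 1.55 and 13.2 FPKM in MEFs. Lama4, the alpha chain of mesenchyme and vessels, had 0.335 FPKM in ES cells and 107 FPKM in MEFs. Integrins were divided in a similar way, with 4 of 17 higher in ES cells and 12 in MEFs and a median of -2.20. Itga6, a laminin receptor chain, had 43.5 FPKM in ES cells and 5.02 FPKM in MEFs, and Itga11, a collagen receptor chain, had 0.0712 FPKM in ES cells and 28.2 FPKM in MEFs.

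Matrix proteases and their inhibitors were higher in MEFs in 14 of 16 members and in ES cells in none, with a median of -4.54. Mmp3, stromelysin 1, was listed at 0 in ES cells and had 2568 FPKM in MEFs. Mmp13, a collagenase, had 0.00704 FPKM in ES cells and 335 FPKM in MEFs, and Mmp2, a gelatinase, had 4.77 FPKM in ES cells and 657 FPKM in MEFs. The inhibitor gene Timp2 had 1.52 FPKM in ES cells and 577 FPKM in MEFs. Mmp3 and Mmp13 are the pair whose printed promoters hold an AP-1 site and a TATA box.

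Contractile genes were higher in MEFs in 18 of 21 members, with a median of -2.93. Acta2, smooth muscle actin, had 0.0896 FPKM in ES cells and 516 FPKM in MEFs. Tagln, transgelin, had 4.39 FPKM in ES cells and 435 FPKM in MEFs, and Myl9, a myosin regulatory light chain, had 0.785 FPKM in ES cells and 136 FPKM in MEFs. The muscle intermediate filament gene Des stayed within 2-fold and had 6.25 FPKM in ES cells and 7.22 FPKM in MEFs.

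Transcription factors of mesenchyme were higher in MEFs in 40 of 45 measured members and in ES cells in none, with a median of -2.21. Twist2, a basic helix-loop-helix factor, had 0.0340 FPKM in ES cells and 142 FPKM in MEFs, and Prrx1, a homeobox factor of limb and face mesenchyme, had 0.0133 FPKM in ES cells and 128 FPKM in MEFs. Snai2, a repressor of E-cadherin, had 0.225 FPKM in ES cells and 28.5 FPKM in MEFs. Factors of limb, face and internal organs were present together in MEFs. Tbx15 had 0.448 FPKM in ES cells and 27.3 FPKM in MEFs, Alx4 had 0.0176 FPKM in ES cells and 3.71 FPKM in MEFs and Osr1 had 0.0111 FPKM in ES cells and 13.7 FPKM in MEFs.

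Hox genes were low in both groups. Of 33 measured members of the 4 clusters, 1 was higher in ES cells and 23 in MEFs, and the values stayed at or under the 13.1 FPKM of Hoxd13 in MEFs. Hoxd13, the most 5' member of the D cluster, had 1.42 FPKM in ES cells and 13.1 FPKM in MEFs, and Hoxb9 had 1.42 FPKM in ES cells and 11.9 FPKM in MEFs. Hoxc6 had 0.139 FPKM in ES cells and 8.63 FPKM in MEFs, and Hoxa10 had 1.23 FPKM in ES cells and 6.76 FPKM in MEFs. In the B and D clusters all 8 and all 7 measured members were higher in MEFs, as deposited and with the median gene or ribosomal protein genes set to 0. In the A and C clusters 5 of 11 and 3 of 7 were as deposited, but 7 of 11 and 6 of 7 with the median gene set to 0.

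**Figure D3:**
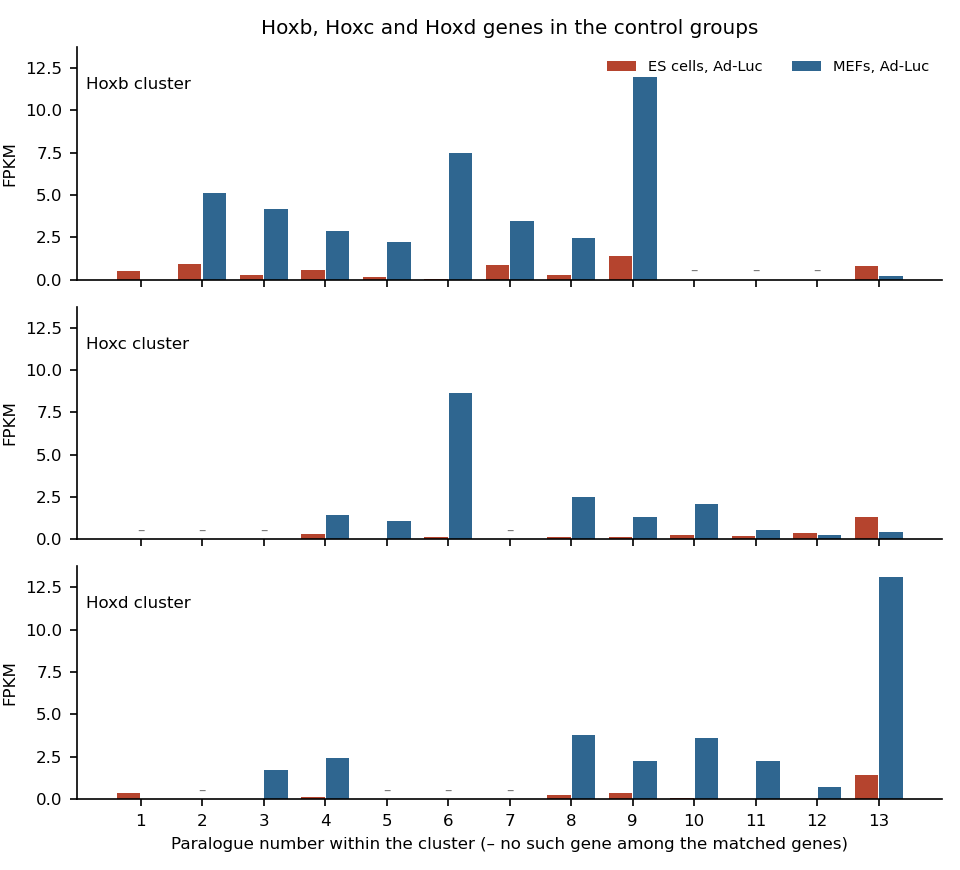
Bars give the FPKM of the genes of the Hoxb, Hoxc and Hoxd clusters in control ES cells (red, left) and control MEFs (blue, right) by paralogue number, with 1 panel per cluster on the same scale from 0. Hoxd13, Hoxb9 and Hoxc6 are the tallest in MEFs, and no gene of these clusters is at least 2-fold higher in ES cells on the FPKM + 1 scale.

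Receptors and ligands of growth factors were mostly higher in MEFs. Of 28 measured receptors, 19 were higher in MEFs and 5 in ES cells, with a median of -2.47. Pdgfrb, the PDGF receptor of mesenchyme, had 0.843 FPKM in ES cells and 159 FPKM in MEFs, and Axl, a receptor for Gas6, had 0.533 FPKM in ES cells and 231 FPKM in MEFs. On the side of ES cells, Erbb3, a receptor for neuregulins, had 11.4 FPKM in ES cells and 0.607 FPKM in MEFs. Of 25 IGF and TGF-beta ligands and binding proteins, 21 were higher in MEFs and 1 in ES cells, with a median of -4.32. Grem1, a BMP antagonist, had 0.243 FPKM in ES cells and 782 FPKM in MEFs, and Igfbp7 had 1.88 FPKM in ES cells and 1481 FPKM in MEFs. Igf2 had 27.7 FPKM in ES cells and 848 FPKM in MEFs.

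Wnt ligands and antagonists were divided, with 6 of 24 measured members higher in ES cells, 11 in MEFs and a median of -0.76, and these were 2 and 17 with ribosomal protein genes set to 0. Wnt5a, a ligand of the non-canonical branch, had 0.285 FPKM in ES cells and 56.1 FPKM in MEFs, and the secreted proteins Dkk3 and Rspo3 had 0.908 and 0.112 FPKM in ES cells, against 92.1 and 31.8 FPKM in MEFs. Tcf7 had 13.1 FPKM in ES cells and 0.822 FPKM in MEFs, and Wnt8a had 5.85 FPKM in ES cells and 0.0240 FPKM in MEFs.

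Innate immune genes were one-sided as well. Of 33 type I interferon response genes, 30 were higher in MEFs and none in ES cells, with a median of -4.14. Isg15, a ubiquitin-like modifier, had 0.0970 FPKM in ES cells and 617 FPKM in MEFs, a log2 ratio of -9.14. Ifit1, which binds viral RNA, had 0.00719 FPKM in ES cells and 219 FPKM in MEFs, and Usp18, which removes Isg15 from proteins, had 0.0323 FPKM in ES cells and 158 FPKM in MEFs. Ifih1, the RNA sensor Mda5, had 0.0380 FPKM in ES cells and 25.6 FPKM in MEFs, and Stat2, a transducer of interferon signals, had 7.65 FPKM in ES cells and 151 FPKM in MEFs. Members within 2-fold were Ifitm1, the adaptor gene Mavs and the transducer gene Irf3, of which Ifitm1 had 89.8 FPKM in ES cells and 48.8 FPKM in MEFs. Both groups had been infected with an adenovirus, and its part in these levels was not tested.

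All 14 measured genes of MHC class I antigen presentation were higher in MEFs, with a median of -4.34. B2m, the invariant light chain of MHC class I, had 15.9 FPKM in ES cells and 2598 FPKM in MEFs. The heavy chains H2-K1 and H2-D1 had 29.9 and 15.3 FPKM in ES cells, against 550.1 and 424 FPKM in MEFs, although reads of these similar genes may have been split between them. Tap1, a peptide transporter chain, had 4.59 FPKM in ES cells and 116 FPKM in MEFs.

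In the control pair, chemokines, cytokines and complement genes had the second largest list median towards MEFs after fibroblast markers. Of 31 members, 29 were higher in MEFs and none in ES cells, with a median of -6.03. Collagens followed closely with -5.97, and in the Ad-Cre pair they were ahead, with -5.73 against -5.56. Ccl2, which draws in monocytes, had 0.0964 FPKM in ES cells and 3461 FPKM in MEFs. Cxcl5 and Cxcl1, which draw in neutrophils, had 0.0673 and 0.0255 FPKM in ES cells, against 1581 and 518 FPKM in MEFs. Saa3, an acute phase protein, had 2.77 FPKM in ES cells and 4293 FPKM in MEFs, and in control hepatocytes of the same series it had 4215 FPKM. Ptx3, a long pentraxin, had 0.00965 FPKM in ES cells and 1032 FPKM in MEFs, and Ccl7 was listed at 0 in ES cells and had 1341 FPKM in MEFs.

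Immediate early factors were higher in MEFs in 13 of 17 measured members and in ES cells in none, with a median of -2.66. The AP-1 subunit genes Fosl2 and Jun had 0.383 and 3.71 FPKM in ES cells, against 66.6 and 89.5 FPKM in MEFs. Egr1 had 1.55 FPKM in ES cells and 109 FPKM in MEFs. Jund, by contrast, stayed within 2-fold and had 42.3 FPKM in ES cells and 31.5 FPKM in MEFs, as did Ier2, which had 145 FPKM in ES cells and 87.3 FPKM in MEFs.

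Lysosomal genes were higher in MEFs in 22 of 25 members, with a median of -3.18. Ctsk, a cathepsin that degrades collagen, had 0.226 FPKM in ES cells and 135 FPKM in MEFs. Ctsd, a general lysosomal protease, had 137 FPKM in ES cells and 1741 FPKM in MEFs, and Ctsb, another cathepsin, had 17.2 FPKM in ES cells and 422 FPKM in MEFs. Tfeb, which encodes a transcription factor of lysosome genes, went the other way and had 13.6 FPKM in ES cells and 2.28 FPKM in MEFs. Genes of caveolae, annexins and related surface proteins were higher in MEFs in 18 of 20 members, with a median of -4.20. Cav1 had 0.0206 FPKM in ES cells and 118 FPKM in MEFs, Cd44, a hyaluronan receptor, had 0.107 FPKM in ES cells and 161 FPKM in MEFs, and S100a4 had 0.410 FPKM in ES cells and 537 FPKM in MEFs.

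Sterol and fatty acid genes depended on which pair of groups was read. In control cells 3 of 27 members were higher in ES cells and 11 in MEFs, with a median of -0.55, while in the Ad-Cre pair the median was 0.24. Sc5d had 6.61 FPKM in ES cells and 63.4 FPKM in MEFs and Scd1, a fatty acid desaturase, had 7.35 FPKM in ES cells and 42.8 FPKM in MEFs in the control groups, and on the other side Elovl6 had 45.2 FPKM in ES cells and 5.30 FPKM in MEFs. Antioxidant genes were divided likewise, with 12 of 27 higher in ES cells and 9 in MEFs and a median of -0.19 that became 0.25 in the Ad-Cre pair, and with 4 and 14 once ribosomal protein genes were set to 0. Gsta4, a glutathione transferase, had 368 FPKM in ES cells and 4.46 FPKM in MEFs. Sod1, the cytosolic superoxide dismutase, had 1034 FPKM in ES cells and 151 FPKM in MEFs, and Sod3, the extracellular one, was listed at 0 in ES cells and had 271 FPKM in MEFs.

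Enzymes that act on the C-terminal domain of RNA polymerase II include Ssu72, the gene targeted in the study. Of 26 kinases, phosphatases and partners, 10 were higher in ES cells and 1 in MEFs, with a median of 0.82 that became -0.60 with ribosomal protein genes set to 0. Under that scaling none of them, Ssu72 included, was higher in ES cells and 6 were higher in MEFs. Ssu72, a phosphatase of this domain on chr4:155704815-155733873, had 99.2 FPKM in ES cells and 22.7 FPKM in MEFs, and 26.0 FPKM in control hepatocytes. Its log2 ratio of 2.08 was the largest of the list. Larp7 and Hexim1, which hold P-TEFb inactive, had 47.0 and 39.9 FPKM in ES cells, against 11.1 and 9.79 FPKM in MEFs, while the P-TEFb kinase gene Cdk9 had 32.1 FPKM in ES cells and 21.5 FPKM in MEFs. Ctdsp1, a small CTD phosphatase known to silence neuronal genes, was the member higher in MEFs, and it had 10.6 FPKM in ES cells and 22.3 FPKM in MEFs.

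RNA-binding regulators leaned towards ES cells as deposited. Of 23 measured splicing regulators, 11 were higher in ES cells and 4 in MEFs, with a median of 0.83 that became -0.60 with ribosomal protein genes set to 0. Srsf3 had 216 FPKM in ES cells and 50.3 FPKM in MEFs. Mbnl2 and Mbnl1, splicing factors of differentiated cells, had 9.65 and 4.65 FPKM in ES cells, against 59.7 and 24.8 FPKM in MEFs. Of 19 measured genes of microRNA processing and the let-7 axis, 9 were higher in ES cells and 2 in MEFs, with a median of 1.00 that became -0.43 under the same scaling. Drosha, the nuclear microRNA processor, had 63.7 FPKM in ES cells and 11.7 FPKM in MEFs, and Dicer1 had 12.6 FPKM in ES cells and 6.76 FPKM in MEFs.

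Imprinted genes went both ways, with 8 of 29 measured members higher in ES cells, 13 in MEFs and a median of -0.04, and with 4 and 18 once ribosomal protein genes were set to 0. Non-coding transcripts of the Dlk1 region that come from the maternal allele were low in ES cells. Meg3 had 0.0561 FPKM in ES cells and 499 FPKM in MEFs, and Rian had 0.0856 FPKM in ES cells and 149.7 FPKM in MEFs. Phlda2, a growth repressor of placenta, had 115 FPKM in ES cells and 0.539 FPKM in MEFs, and Peg10, a retrotransposon-derived gene, had 101 FPKM in ES cells and 2.91 FPKM in MEFs. H19 had 25.7 FPKM in ES cells and 349.6 FPKM in MEFs.

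Xist, the RNA that silences an X chromosome in female cells, had 0.528 FPKM in ES cells and 115 FPKM in MEFs, and 195 FPKM in control hepatocytes. All 7 Y-linked genes examined, Sry and Kdm5d among them, had at most 0.0216 FPKM in ES cells and were listed at 0 in MEFs. Over the X chromosome, 137 of 465 genes at 1 FPKM were higher in ES cells (29.5%) and 134 in MEFs (28.8%). These shares were near the 30.4% and 25.4% of all genes. Of 14 measured X-linked genes of note, 4 were higher in ES cells and Xist in MEFs, with a median of 0.60 that became -0.82 with ribosomal protein genes set to 0. The X-linked phosphatase gene Dusp9 had 178 FPKM in ES cells and 1.28 FPKM in MEFs, while Hprt had 161 FPKM in ES cells and 46.1 FPKM in MEFs and Pgk1 had 400.4 FPKM in ES cells and 435 FPKM in MEFs. Other long non-coding RNAs were divided, with 5 of 21 measured members higher in ES cells, 9 in MEFs and a median of -0.44, and with 1 and 15 under the same scaling. Malat1 and Neat1, nuclear RNAs, had 48.9 and 94.8 FPKM in ES cells, against 233 and 484 FPKM in MEFs.

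The direction of replication-dependent histone genes depended on scaling. Of 32 measured members, 10 were higher in ES cells and 10 in MEFs as deposited, 5 and 11 with the median gene set to 0, and none and 17 with ribosomal protein genes set to 0, and the median of 0.30 became -1.13 in this last reading. Hist1h1c had 6.08 FPKM in ES cells and 99.0 FPKM in MEFs, and Hist1h2bm had 3.82 FPKM in ES cells and 0.163 FPKM in MEFs. A further 17 of 49 matched genes stayed under 1 FPKM in both groups, and reads of these near-identical copies may have been split between them.

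Some markers of other cell types were present in both groups. Of 14 measured macrophage and blood markers, 12 were higher in MEFs and 2 in ES cells, and the list of 19 summed to 163 FPKM in ES cells and 233 FPKM in MEFs. In ES cells Lyz1, Lyz2, Emr1, C1qa, C1qb, Cd53 and Aif1 were listed at 0, and in MEFs the 3 haemoglobin genes were. Lyz2 had 140.5 FPKM in MEFs, Emr1, known as F4/80, 7.23 FPKM and Ptprc, known as CD45, 0.636 FPKM. Of the FPKM in ES cells, 132 were Laptm5, against 4.91 FPKM in MEFs. In bulk RNA fewer cells of a type and less RNA per cell cannot be told apart. The part of macrophages in the chemokine and interferon levels of MEFs was not tested.

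Of 8 measured endothelial markers, 4 were higher in ES cells and 2 in MEFs, with a median of 1.15 that became -0.28 with ribosomal protein genes set to 0, and the list of 15 summed to 83.0 FPKM in ES cells and 55.9 FPKM in MEFs. Log2 ratios of the measured endothelial markers ran from -3.53 to 4.12. Pecam1, which ES cells are known to express themselves, had 18.1 FPKM in ES cells and 0.0999 FPKM in MEFs. Cdh5, not measured, stood at 0.356 FPKM in ES cells and 0.150 FPKM in MEFs. Mesothelial markers summed to 79.6 FPKM in ES cells and 52.2 FPKM in MEFs. Of 13 measured members, 3 were higher in ES cells and 5 in MEFs, with a median of -0.42 that became 0.01 in the Ad-Cre pair. Their log2 ratios ran from -3.17 to 4.75, and Msln, on the side of MEFs, had 2.22 FPKM in ES cells and 12.1 FPKM in MEFs. Muscle and cartilage markers summed to 40.9 FPKM in ES cells and 36.9 FPKM in MEFs, with 5 of 10 measured members higher in each group and a median of -0.06 that became 0.30 in the Ad-Cre pair and 0.33 with 0.1 FPKM added in place of 1. Log2 ratios of these measured members ran from -3.35 to 3.83. Myod1, not among them, had 0.0741 FPKM in ES cells and 0.0323 FPKM in MEFs.

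Some genes commonly used as references differed between these cell types. Of 18 housekeeping genes, 8 were higher in ES cells, 3 were higher in MEFs and 7 lay within 2-fold. Of all 13538 genes, 7556 were past 2-fold in either direction, so such differences were not particular to this list. The median of 0.81 became -0.62 with ribosomal protein genes set to 0, where none was higher in ES cells and 6 were in MEFs. Gapdh had 1583 FPKM in ES cells and 815 FPKM in MEFs, and Actb had 852 FPKM in ES cells and 1573 FPKM in MEFs. Tfrc had 124 FPKM in ES cells and 31.9 FPKM in MEFs, while Gusb had 12.1 FPKM in ES cells and 64.8 FPKM in MEFs.

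Gene length, which the contrast did not use, went with its direction. RefSeq lengths were found for 12754 of 13538 genes, and the median was 18.1 kb for genes higher in ES cells, 25.2 kb for genes higher in MEFs and 23.5 kb for genes within 2-fold. Genes of at least 100 kb made up 7.81% of those higher in ES cells, 18.0% of those higher in MEFs and 12.1% of those within 2-fold. Among the 549 genes of at least 200 kb, 69 (12.6%) were higher in ES cells and 244 (44.4%) in MEFs. In the Ad-Cre pair the median log2 ratio of these genes was -0.66, against -0.81 in the control pair.

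**Figure D4:**
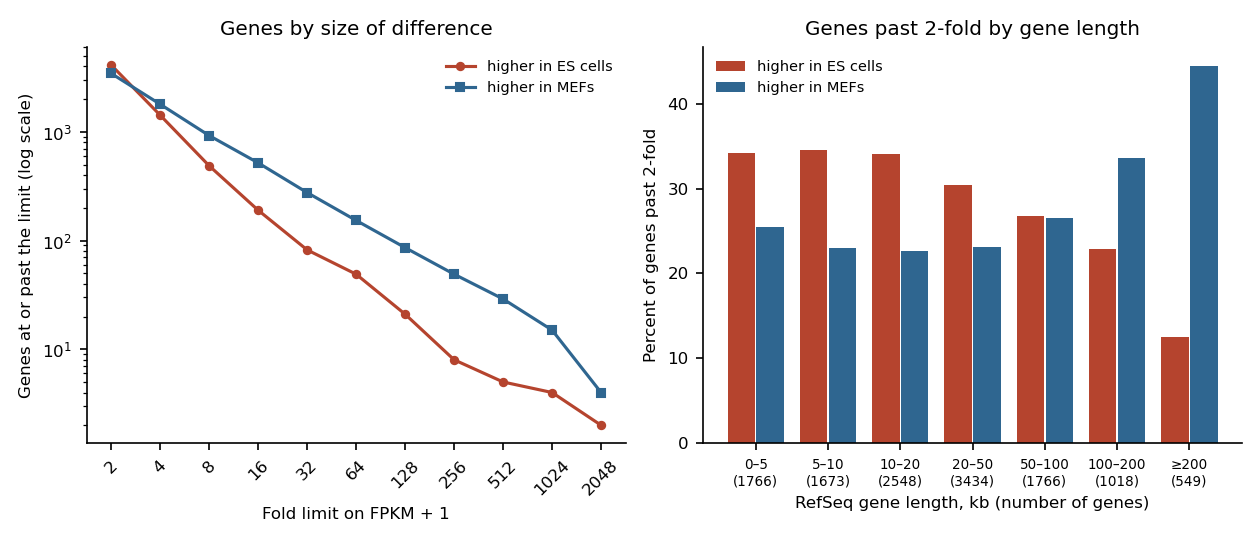
The left panel counts genes at or past each fold limit on FPKM + 1 (x axis) on a logarithmic y axis, in red for genes higher in ES cells and in blue for genes higher in MEFs, and the lines cross between 2-fold and 4-fold. The right panel gives the percent of genes past 2-fold in each direction by RefSeq gene length in kb, and the share higher in ES cells is 34.1% under 5 kb and 12.6% at 200 kb or more.

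By chromosome, the median log2 ratio ran between -0.10 on chromosome 3 and 0.51 on chromosome 17, with the X chromosome at 0.00. The share of genes higher in ES cells was 36.1% on chromosome 17 and 25.8% on chromosome 1.

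The Ad-Cre groups of the same 2 tables, in which Cre was to delete Ssu72, were not used to choose these genes and give a second reading in other libraries. Ssu72 depletion itself can move a gene there. Both pairs share the scaling of the 2 tables, so this reading cannot check a general shift between the cell types. Ssu72 had 44.7 FPKM in Ad-Cre ES cells and 3.69 FPKM in Ad-Cre MEFs, against 99.2 FPKM in control ES cells and 22.7 FPKM in control MEFs. In the Ad-Cre pair 3825 of 13670 genes were higher in ES cells (28.0%) and 3360 higher in MEFs (24.6%). Of the 4113 genes higher in control ES cells, 3532 (85.9%) were at least 2-fold higher in ES cells again and 11 were at least 2-fold higher in MEFs. Of the 3443 genes higher in control MEFs, 2977 (86.5%) were higher in MEFs again and 6 were higher in ES cells. Without short RNAs these reversals numbered 4 among genes higher in control ES cells and 0 among genes higher in control MEFs. The 4 included Matk, Ndufs5 and Arhgef39, and Arhgef39 had 15.5 FPKM in ES cells and 2.22 FPKM in MEFs in control cells and had 15.6 FPKM in Ad-Cre ES cells and 37.9 FPKM in Ad-Cre MEFs.

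**Figure D5:**
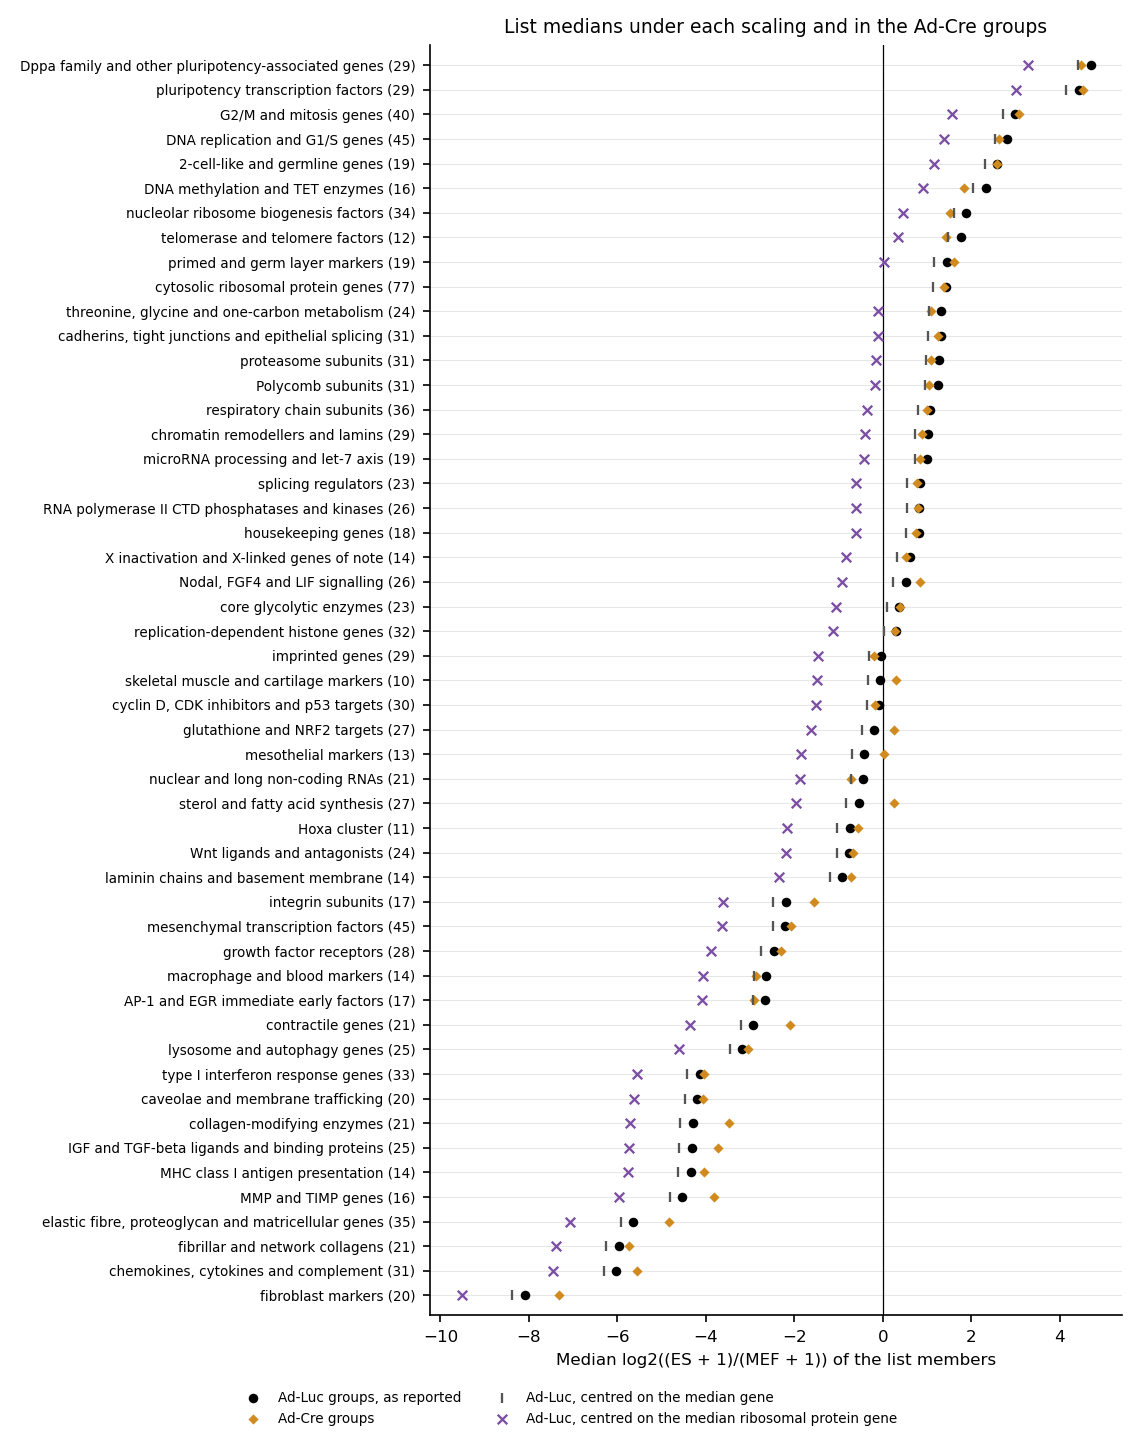
Each row is a gene list with its number of measured members, and the x axis gives the median log2((ES + 1)/(MEF + 1)) of its members in the Ad-Luc groups as deposited (circles), in the Ad-Cre groups (diamonds), and in the Ad-Luc groups after centring on the median gene (bars) or on the median ribosomal protein gene (crosses). Crosses, drawn for every list but the ribosomal protein genes themselves, lie 1.42 below the circles, which carries lists such as the proteasome and the respiratory chain across 0, while matrix, chemokine and interferon lists stay below 0 in all 4 readings.

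Genes of short RNAs, such as microRNAs and snoRNAs, repeated least often. Of 126 such genes at 1 FPKM in either group, 61 were listed at 0 in one of them. They made up 5 of the 25 largest ratios towards ES cells and 3 of the 25 towards MEFs, but only 5 of 27 genes of short RNAs higher in ES cells and 22 of 62 higher in MEFs were so again in the Ad-Cre pair. Mir5133 had 1638 FPKM in ES cells and was listed at 0 in MEFs, and in the Ad-Cre groups it was listed at 0 in ES cells and had 1192 FPKM in MEFs. Mir762 was listed at 0 in ES cells and had 1144 FPKM in MEFs, and in the Ad-Cre groups it had 1835 FPKM in ES cells and was listed at 0 in MEFs.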

How the data were processed

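RNA was sequenced from ES cells (2 samples) and MEFs (3 samples) infected with Ad-Luc, from stranded total RNA libraries with paired-end reads per the study's methods. Tools listed in the processing notes of the submitters are Cuffdiff 2.2.0, TopHat2 2.0.13, CASAVA, edgeR and DESeq, with mm10 as the build and no role given for each. The deposited tables hold FPKM, which the authors computed as 1 value per gene and group and scaled separately for each cell type. No values of single samples were analysed here, so that neither the depth of a sample nor a replicate error can be given, and 0 per-sample columns were left unused. The tables also hold the authors' fold changes, test statistics, p-values and significance marks for Ad-Cre against Ad-Luc, none of which were used.

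Genes were matched by symbol between both tables, and log2((ES + 1)/(MEF + 1)) was taken in Python 3.11.15 with pandas 2.3.3 and NumPy 2.4.6, with figures in matplotlib 3.10.9. A gene passed at 2-fold with at least 1 FPKM in either group. The script was tested on simulated data. Genes named are the 25 largest ratios in each direction, the 10 highest genes of each group, up to 6 members per list and direction, Pou5f1, Col1a1, Ssu72 and genes at the 2-fold limit, and any other gene named was chosen after its values were seen. Some genes that entered the counts and medians are not reported here. The members and gene lists were chosen with earlier results of these data known. A listed symbol can join several genes, which was the case for 103 symbols. Gene lengths, gene classes and promoters were taken from RefSeq tables of GRCm38.p6 by symbol, with 22432 genes matched (93.5%). Alternatives were 0.1 or 5 FPKM added, a minimum of 5 FPKM or none, a limit of 4-fold, equal totals, centring on the median gene or ribosomal protein gene, protein-coding genes only, genes the authors' status column marks OK, and the Ad-Cre groups.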

Additional observations from a re-analysis of the deposited data

How the results depend on the processing

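No paired analysis was possible because each group has 1 deposited value per gene, and for the same reason no sample could be left out and no test run. In the Ad-Cre groups 11 of the 4113 genes higher in ES cells and 6 of the 3443 higher in MEFs were at least 2-fold higher in the other cell type. With 5 FPKM added, 2619 genes were higher in ES cells and 2271 in MEFs. At 4-fold there were 1422 in ES cells and 1793 in MEFs, so that 44.2% of them were higher in ES cells against 54.4% at 2-fold. Centred on the median ribosomal protein gene, 903 were higher in ES cells and 7377 in MEFs (10.9%), and 1422 of the 4113 genes turned to below 0. The share higher in ES cells was 46.5% with equal totals, 43.4% centred on the median gene, 53.2% in the Ad-Cre groups and 57.9% among genes with the authors' status OK. A minimum of 5 FPKM gave 3358 genes in ES cells and 2756 in MEFs, 0.1 FPKM added 4662 in ES cells and 3825 in MEFs, and protein-coding genes alone 3755 in ES cells and 3113 in MEFs. Chosen after seeing the data, leaving out short RNAs gave 4086 in ES cells and 3381 in MEFs, and leaving out 134 genes that differed over 4-fold between Ad-Luc and Ad-Cre gave 4087 in ES cells and 3398 in MEFs. Equal totals were added for list medians after seeing the data too.

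Centring on the median ribosomal protein gene turned the median of 7 lists from over 2-fold to below 0, namely Polycomb subunits (-0.19), chromatin remodellers and lamins (-0.41), threonine, glycine and one-carbon metabolism (-0.11), respiratory chain subunits (-0.35), cadherins, tight junctions and epithelial splicing (-0.12), endothelial markers (-0.28) and proteasome subunits (-0.16), where medians as deposited lay between 1.01 and 1.32. The cause was not tested. Of 55 list medians, 49 kept both their sign and their side of 2-fold with equal totals, 49 in the Ad-Cre groups and 49 with 0.1 FPKM added. Both were kept by 46 centred on the median gene, and by 24 of 54 centred on the median ribosomal protein gene. Depth is unknown, so values near 0 cannot be told apart from no expression.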

Other observations

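Gene families taken by the shared start of their symbols, some of whose members also stand in lists above, were read in the same way. All sets in this section were chosen with results known and carry no test. Machinery of transcription, nuclear transport and mitochondrial translation was on the side of ES cells as deposited. Of 19 nuclear pore genes (Nup), 18 were higher in ES cells and none in MEFs, with a median log2 ratio of 1.79 that became 0.37 with ribosomal protein genes set to 0, and Nup210 had 14.1 FPKM in ES cells and 0.156 FPKM in MEFs. Of 28 genes of RNA polymerase subunits (Polr), 20 were higher in ES cells and none in MEFs, with a median of 1.59 that became 0.16 under that scaling. Polr3g, a subunit of RNA polymerase III that has the paralogue Polr3gl, had 26.2 FPKM in ES cells and 0.843 FPKM in MEFs. Of 23 TBP-associated factors (Taf), 17 were higher in ES cells and none in MEFs, with a median of 1.23 that became -0.19. Mitochondrial ribosomal proteins (Mrpl, Mrps) were higher in ES cells in 50 of 77 genes and in MEFs in none, with a median of 1.23 that became -0.20. Of 10 Fanconi anaemia genes (Fanc), which repair DNA crosslinks, 8 were higher in ES cells, with a median of 1.39 that became -0.04, and Fanci had 29.7 FPKM in ES cells and 1.30 FPKM in MEFs. Of 321 measured zinc finger genes (Zfp), 95 (29.6%) were higher in ES cells, beside 30.4% of all genes, and 20 (6.23%) in MEFs, beside 25.4%, with a median of 0.51 that became -0.91.

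Surface and secreted families were on the side of MEFs. Protocadherins (Pcdh) were higher in MEFs in 32 of 34 measured genes and in ES cells in none, with a median of -1.94, and Pcdh7 had 0.00791 FPKM in ES cells and 55.1 FPKM in MEFs. Of 22 measured ADAM and ADAMTS genes, most of which encode proteases, 18 were higher in MEFs and 1 in ES cells, with a median of -2.79. Adamts1, which cleaves proteoglycans, had 0.382 FPKM in ES cells and 67.3 FPKM in MEFs. Serpins, most of which inhibit proteases, were higher in MEFs in 16 of 20 measured genes and in ES cells in 2, with a median of -2.92, and Serpinf1 had 0.478 FPKM in ES cells and 854 FPKM in MEFs. Of 34 interleukin and interleukin receptor genes (Il), 25 were higher in MEFs and 3 in ES cells, with a median of -1.83. Il1rl1, the receptor for interleukin 33, had 0.00692 FPKM in ES cells and 662 FPKM in MEFs, while its ligand Il33 had 0.371 FPKM in ES cells and 1.09 FPKM in MEFs. Of 237 measured solute carriers (Slc), 49 (20.7%) were higher in ES cells and 82 (34.6%) in MEFs, with a median of -0.57.

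Among the 25 largest ratios towards ES cells were genes that belong to no list. Pla2g1b, a secreted phospholipase, had 272 FPKM in ES cells and was listed at 0 in MEFs. Bex1, a brain-expressed X-linked protein, had 439 FPKM in ES cells and 1.20 FPKM in MEFs, and Rbmxl2, a germline RNA-binding protein, had 155 FPKM in ES cells and 0.0732 FPKM in MEFs. Gm7325 had 146 FPKM in ES cells and 0.0682 FPKM in MEFs, and E130012A19Rik had 364 FPKM in ES cells and 1.88 FPKM in MEFs.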
